A study of Mus musculus with 8 samples.

Results

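The enzymes that modify collagen inside the cell and cross-link it outside were followed as 10 genes, taken by symbol from the deposited gene table of 18605 genes. They are the prolyl 4-hydroxylase catalytic subunits *P4ha1* and *P4ha2*, the lysyl hydroxylases *Plod1*, *Plod2* and *Plod3*, and the lysyl oxidases *Lox*, *Loxl1*, *Loxl2*, *Loxl3* and *Loxl4*. All 10 were in the table and all 10 were among the 13470 genes with enough counts to be tested. RNA came from C3H10T1/2 cells, a mesenchymal line derived from mouse embryos of strain C3H and grown in DMEM with fetal bovine serum. Cells carried a non-target control (NC) or an shRNA against *Nap1l2* (KD-Nap1l2), delivered by lentivirus, and were taken before osteogenic induction or 7 days into it, in medium with dexamethasone and ascorbic acid (the day-7 groups being NC-7d and KD-Nap1l2-7d), with 2 libraries in each of the 4 groups. Which *Nap1l2* shRNA was sequenced is not given in the sources used here, so the knockdown groups stand for a single unnamed construct or mixture. Control cells kept for 7 days without induction were not among the groups, so induction and time in culture cannot be told apart. Nothing in the labels says that the libraries came from separate cultures, and p-values then measure only the spread between these libraries, which may be technical.

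Collagen chains are hydroxylated on proline and lysine in the endoplasmic reticulum before they fold into a triple helix. Prolyl 4-hydroxylase, a tetramer of catalytic alpha subunits (*P4ha1*, *P4ha2*) and the beta subunit *P4hb*, makes the hydroxyproline that holds the helix together at body temperature, and the lysyl hydroxylases make the hydroxylysine from which sugar attachments and mature cross-links are formed. After secretion, the copper-dependent lysyl oxidases turn lysine and hydroxylysine side chains of collagen and elastin into aldehydes, which then condense into the cross-links that give bone and connective tissue their strength. The hydroxylases need oxygen, iron and ascorbate, and *P4ha1*, *P4ha2*, *Plod1*, *Plod2* and *Lox* are textbook targets of the hypoxia-inducible factor HIF-1.

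The cells were checked against cell type markers. *Vim*, a mesenchymal filament gene, had 49733 to 151854 counts in the 8 libraries, and *Thy1*, a surface marker of mesenchymal cells, 19 to 183. The leukocyte gene *Ptprc* had at most 4 counts and the epithelial gene *Epcam* at most 1, but the macrophage gene *Cd68* had 56 to 196, highest in KD-Nap1l2-7d, and the epithelial cadherin *Cdh1* 27 to 150. The endothelial genes *Pecam1*, *Cdh5* and *Kdr* had at most 25 counts. edgeR called *Cdh1*, *Thy1* and the mesenchymal gene *Col3a1* lower with induction in both backgrounds. Of 8 mesenchymal markers it called 2 lower in NC-7d against NC and 6 lower in KD-Nap1l2-7d against KD-Nap1l2, with 0 higher in each. It called 8.21% and 14.2% of all genes tested in these comparisons. The keratin *Krt5* reached 54 counts in NC-7d replicate 1 and at most 11 elsewhere. Of 5 osteoblast genes, *Ibsp*, *Sp7* and *Alpl* had at most 10 counts in any library, also after 7 days, and *Bglap* at most 22.5. *Dmp1* had 130 to 569 counts before induction and 75 to 154 after it (log2 differences -1.74 in the control cells and -1.54 in the libraries labelled KD-Nap1l2, edgeR adjusted p = 0.147 in each). The adipocyte gene *Fabp4* went from 91 to 278 counts before induction to 1531 to 1948 after it, while the other adipocyte genes *Adipoq* and *Plin1* had at most 18. What part these signals had in the enzyme values was not tested. In bulk RNA of this kind, fewer cells of a type and less RNA per cell cannot be told apart. Library totals lay between 17420284 and 19427359 counts. Differences between groups are given on the log2 scale with ± their standard error, and edgeR adjusted p stands for its quasi-likelihood test with Benjamini-Hochberg adjustment. *Nap1l2*, the gene the shRNA targets, had 3 counts in each NC library, against 2 and 7 in KD-Nap1l2, and 15 and 5 counts in NC-7d, against 7 and 13 in KD-Nap1l2-7d. Its log2 difference was 0.64 ± 0.98 (edgeR adjusted p = 0.812) before induction, so these counts gave no check of the knockdown, and the groups are named as the libraries are labelled.

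The largest log2 differences between groups among the 10 genes lay in the hydroxylases *P4ha1*, *P4ha2* and *Plod1*. By edgeR's unadjusted p-value, *Loxl4* in KD-Nap1l2 against NC (0.0013) came before *P4ha1* in NC-7d against NC (0.0024). The sequences just before the RefSeq gene starts (GRCm38.p6) of *P4ha1*, *P4ha2* and *Plod1* are shown because these genes moved together over the libraries. Capitals mark ACGTG or GCGTG on either strand, the core letters of the element bound by HIF-1. The letters ACGTG also occur in the E-box CACGTG, which other factors bind. *P4ha1* spans 59323197 to 59373304 of chromosome 10, plus strand, and its 151 bases are chr10:59323046-59323196. *P4ha2* spans 54100924 to 54131668 of chromosome 11, plus strand, and its 250 bases are chr11:54100674-54100923. *Plod1* spans 147909753 to 147936776 of chromosome 4, minus strand, and its 250 bases are chr4:147936777-147937026, read on the minus strand.
P4ha1: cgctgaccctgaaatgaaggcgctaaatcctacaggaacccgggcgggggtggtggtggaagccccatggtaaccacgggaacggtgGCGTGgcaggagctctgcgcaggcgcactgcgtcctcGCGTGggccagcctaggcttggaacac
P4ha2: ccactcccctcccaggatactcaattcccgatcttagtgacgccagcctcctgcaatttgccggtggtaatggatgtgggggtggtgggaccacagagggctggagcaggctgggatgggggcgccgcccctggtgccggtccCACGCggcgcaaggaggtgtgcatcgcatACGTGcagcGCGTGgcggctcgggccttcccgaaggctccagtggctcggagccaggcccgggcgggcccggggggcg
Plod1: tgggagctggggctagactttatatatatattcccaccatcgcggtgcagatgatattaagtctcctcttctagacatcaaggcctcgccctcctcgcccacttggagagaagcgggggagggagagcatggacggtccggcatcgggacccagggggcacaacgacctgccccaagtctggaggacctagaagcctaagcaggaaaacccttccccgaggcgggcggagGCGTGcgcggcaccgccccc

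The printed bases hold 2 matches in *P4ha1*, 3 in *P4ha2* and 1 in *Plod1*. *P4ha1* has a further match in the 99 bases left out because another *P4ha1* transcript model already covers them. Over the 250 bases before the start, *Plod3* had 4 matches and *Loxl4* had 1. *Lox*, on chromosome 18, was left out of the look-up, and no sequence was found for *Loxl1*, *Loxl2*, *Loxl3* and *Plod2*. Since 38.6% of all 32851 promoters of that length hold a match, the motif was common in general. A match is a run of letters, and no binding was measured at it here.

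Levels of different genes were compared in FPKM, a unit scaled to length. The file headers do not name the unit, which was inferred from the counts and transcript lengths. It placed *Lox* highest and *Loxl2* lowest of the 10 genes in every group. *Lox*, the founding member of its family, had 346.21 and 182.35 FPKM in NC, 408.19 and 723.88 in KD-Nap1l2, 363.75 and 472.32 in NC-7d, and 455.54 and 431.4 in KD-Nap1l2-7d. *Loxl2*, which also acts on type IV collagen, had 0.6 to 1.02 FPKM over the 8 libraries. In NC the order after *Lox* was *P4ha1* (167.1 ± 15.5 FPKM, SD, n = 2), *Loxl1* (115.6 ± 1.51), *Plod1* (99.8 ± 8.93), *P4ha2* (65.7 ± 6.49), *Plod3* (39.3 ± 5.29), *Loxl3* (21.7 ± 4.66), *Plod2* (19.8 ± 2.75), *Loxl4* (12.3 ± 0.198) and *Loxl2* (0.87 ± 0.212). Among neighbours in that order, only *Loxl3* and *Plod2* had overlapping libraries. In NC-7d *P4ha1* had dropped to the fourth place with 36.2 ± 3.6 FPKM (SD, n = 2), and its libraries overlapped those of *Plod3*, as those of *Loxl3* overlapped *P4ha2* and those of *Loxl4* overlapped *Plod2*. In KD-Nap1l2-7d *P4ha1* stood second with 78.3 ± 10.7 FPKM (SD, n = 2), overlapping *Loxl1*, and *Loxl4* again overlapped *Plod2*. In KD-Nap1l2 *P4ha1* (182.2 ± 138.3 FPKM, SD, n = 2), *P4ha2* (112.6 ± 97.5), *Plod1* (106.9 ± 72.8) and *Loxl1* (87.6 ± 13.4) followed *Lox* and overlapped from neighbour to neighbour, as did *Plod3*, *Plod2*, *Loxl4* and *Loxl3* after them.

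**Figure D1:**
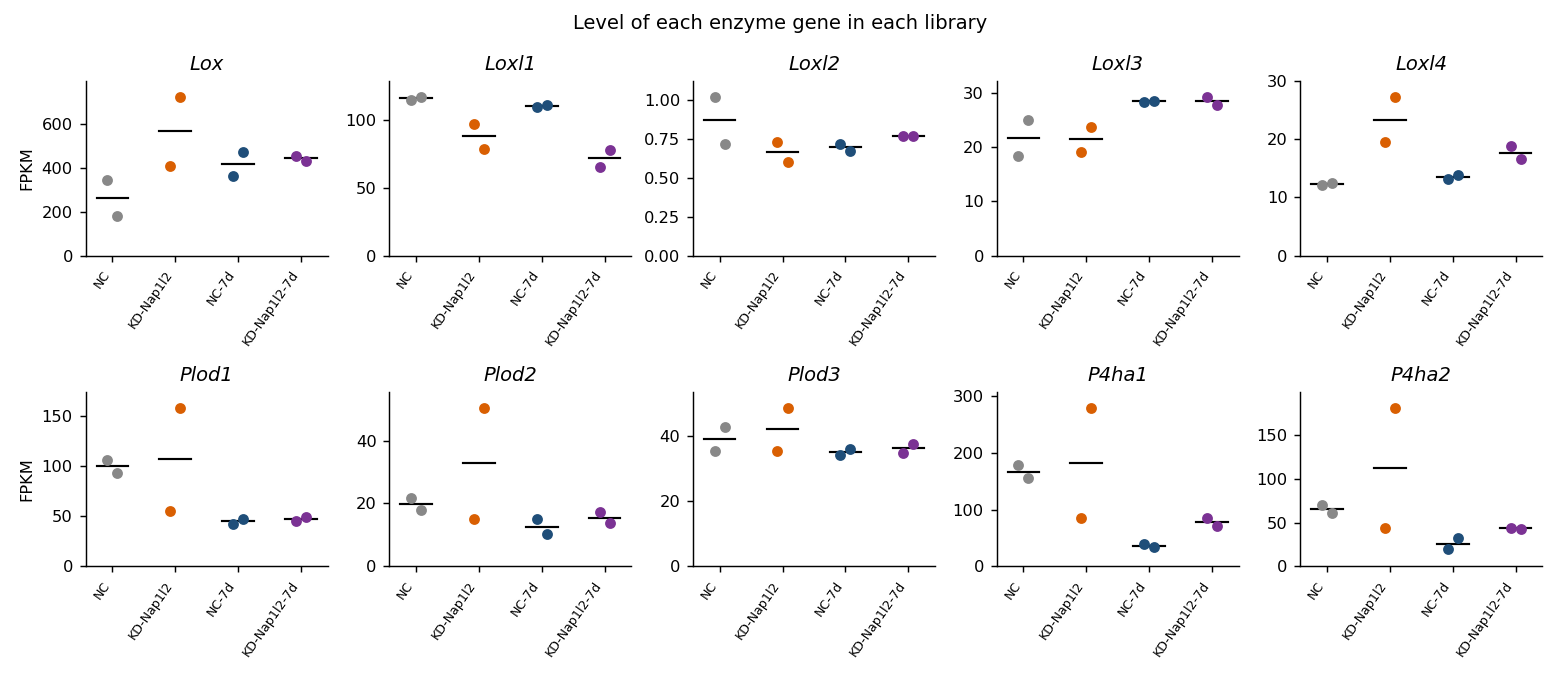
Level of each of the 10 genes in FPKM (vertical axes, from 0, a scale per gene) in the 4 groups. Points are the 2 libraries of a group and the line is their mean. *P4ha1*, *P4ha2*, *Plod1* and *Plod2* each have 1 KD-Nap1l2 library far above the other, and *P4ha1* and *Plod1* are lower in both NC-7d libraries than in both NC libraries.

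Osteogenic induction of the control cells went with lower *P4ha1*, and the other prolyl 4-hydroxylase and the lysyl hydroxylases had lower means that did not pass the test. Here normalized counts are counts scaled by library size, which compare libraries but not genes. *P4ha1*, the more abundant alpha subunit in NC, had 9886 and 8291 normalized counts in NC and 2155 and 1754 in NC-7d. Both induced libraries thus lay far under both controls. Its mean was 4.65-fold lower after induction by the fit, a log2 difference of -2.22 ± 0.51 (edgeR adjusted p = 0.0367). *P4ha1* was the 1 member of 10 called in this comparison (3 had an unadjusted p-value under 0.05, as did 24.5% of all genes), and 3.38% of all genes tested were called lower (8.21% in either direction). The call was lost without any 1 of the 4 libraries, when the adjusted p from edgeR ran from 0.0945 to 0.194 and the log2 difference from -2.37 to -2.08. Over all alternatives, with edgeR, DESeq2 or limma, the adjusted p ran from 0.00386 to 0.194.

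*P4ha2*, the second alpha subunit, had 2954 and 2531 normalized counts in NC and 848 and 1293 in NC-7d. The groups did not overlap, and the log2 difference of -1.36 ± 0.57 (edgeR adjusted p = 0.195) did not pass. *Plod1*, which hydroxylates lysines within the helix, had 6387 and 5545 normalized counts in NC and 2590 and 2753 in NC-7d, again without overlap, the log2 difference being -1.16 ± 0.43 (edgeR adjusted p = 0.148). A fit of only these 4 libraries called both lower, among 5.72% of all genes, with adjusted p = 0.0357 for *P4ha2* and 0.0171 for *Plod1* from edgeR, and DESeq2's Wald test called *Plod1* (adjusted p = 0.017) with *P4ha1*, among 11.0% of all genes.

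*Plod2*, the lysyl hydroxylase of the collagen telopeptides, had 1497 and 1211 normalized counts in NC and 1048 and 679.1 in NC-7d, a log2 difference of -0.65 ± 0.51 (edgeR adjusted p = 0.480). *Plod3*, which also adds the sugars to hydroxylysine, had 1885 and 2271 normalized counts in NC and 1853 and 1872 in NC-7d, and it had a log2 difference of -0.16 ± 0.19. Neither difference passed the test, though all 5 hydroxylases had a lower mean after induction. Counts of *Plod3*, *Loxl2* and *Loxl3* were not whole in any of the 8 libraries and these genes overlap other annotated genes, so their values are less certain than those of genes counted in whole reads.

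The lysyl oxidases did not share that direction as a family. *Lox* had 29862 and 15567 normalized counts in NC and 31808 and 39396 in NC-7d, a log2 difference of 0.65 ± 0.37 (edgeR adjusted p = 0.324). *Loxl3* had 1386 and 1854 normalized counts in NC and 2159 and 2081 in NC-7d, with a log2 difference of 0.39 ± 0.19 (edgeR adjusted p = 0.245). Both had no overlap between the groups, and neither passed. *Loxl1*, which acts mainly on elastin, had 7080 and 7106 normalized counts in NC and 6836 and 6606 in NC-7d (log2 difference -0.08), and *Loxl4* had 1228 and 1238 in NC and 1355 and 1350 in NC-7d (0.13). *Loxl2* had 99.4 and 68.2 normalized counts in NC and 70.6 and 63.2 in NC-7d (log2 difference -0.32), with overlapping libraries. Over the 10 members, 6 had NC-7d libraries wholly under NC and 3 wholly above, where 28.4% and 29.4% of all genes tested did so. Their median log2 difference was -0.24, against -0.0035 over all genes tested.

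**Figure D2:**
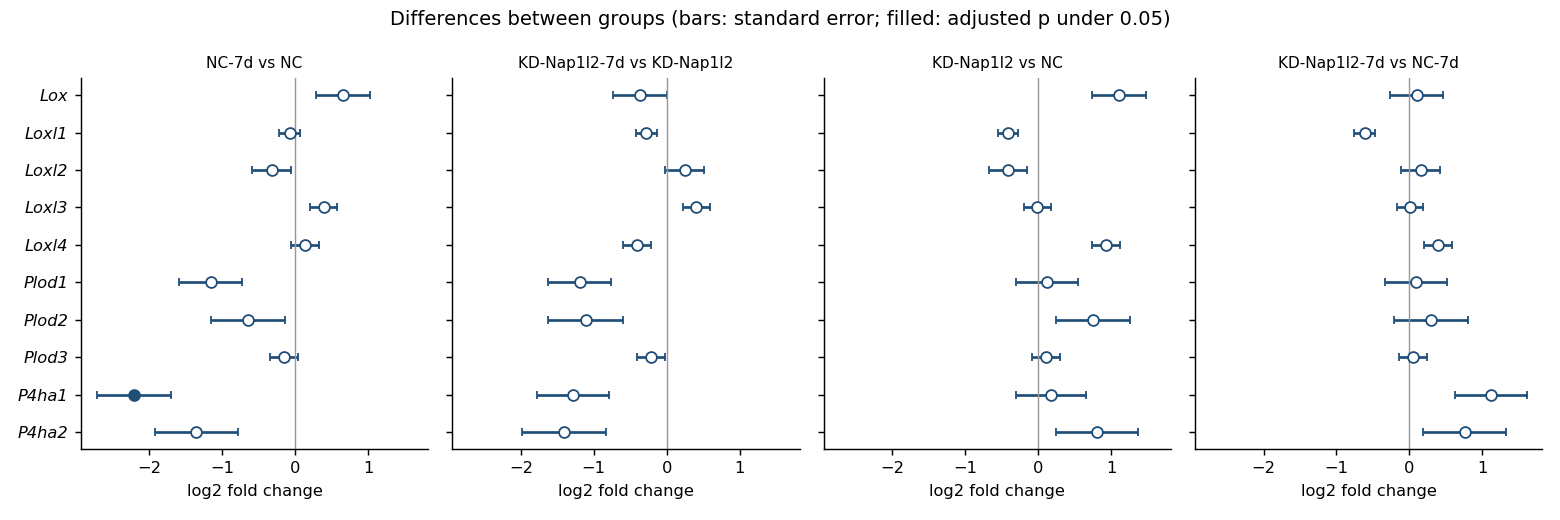
Log2 fold change of each of the 10 genes (horizontal axes, bars are standard errors) in the 4 comparisons between groups of 2 libraries, from edgeR's fit of all 8 libraries. The filled point, *P4ha1* in NC-7d against NC at -2.22, is the 1 value with an adjusted p under 0.05.

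In the libraries labelled KD-Nap1l2, induction gave lower hydroxylase means as well, but the uninduced libraries were far apart. *P4ha1* had 4403 and 16179 normalized counts in KD-Nap1l2 and 4509 and 3960 in KD-Nap1l2-7d, so the groups overlapped. *P4ha2* had 1732 and 7883 against 1809 and 1808, and *Plod2* had 973.8 and 3597 against 1170 and 947.3. Only replicate 2 of KD-Nap1l2 lay above the induced libraries in these 3 genes. *Plod1* had 3154 and 9853 normalized counts in KD-Nap1l2 and 2705 and 2985 in KD-Nap1l2-7d, and here the groups did not overlap. The log2 differences were -1.28 for *P4ha1*, -1.41 for *P4ha2*, -1.19 for *Plod1* and -1.11 for *Plod2*, with standard errors from 0.43 to 0.57 and adjusted p-values from 0.103 to 0.184 in edgeR's test. Thus 0 of the 10 members were called by edgeR, with 3 at an unadjusted p-value under 0.05 (31.4% of all genes), and DESeq2 called 1 (*Plod1*, adjusted p = 0.00914). Of all genes tested, edgeR called 14.2% and DESeq2 17.4%.

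The remaining members differed less in this comparison. *Plod3* had 1800 and 2679 normalized counts before induction and 1845 and 2020 after it (log2 difference -0.21). *Lox* had 33301 and 64754 normalized counts before and 38889 and 37311 after induction (-0.36 ± 0.37), and *Loxl4* had 1861 and 2852 before and 1873 and 1681 after (-0.41 ± 0.19). In these 3 genes, too, the induced libraries overlapped the uninduced ones. *Loxl1* had 5672 and 4988 normalized counts before and 3975 and 4811 after induction (-0.28), *Loxl3* had 1367 and 1847 before and 2175 and 2089 after (0.41), and *Loxl2* had 66.5 and 59.3 before and 75.1 and 74.1 after (0.25). The groups did not overlap in these, and none passed. Over the members, 2 had induced libraries wholly above and 2 wholly under the uninduced ones, as did 30.8% and 30.6% of all genes tested, and the median log2 difference was -0.39 against -0.007 over all genes tested.

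The KD-Nap1l2 libraries stood far from each other in the hydroxylases. Replicate 2 exceeded replicate 1 by 2.19 on the log2 scale in *P4ha2*, by 1.88 in *P4ha1* and in *Plod2*, and by 1.64 in *Plod1*, where the median size of the difference over all genes tested was 0.259. Without replicate 1, edgeR called 5 members lower after induction, *P4ha1*, *P4ha2*, *Plod1*, *Plod2* and *Loxl4*, among 15.9% of all genes, with adjusted p-values from 0.00212 to 0.0162. Without replicate 2, edgeR called 0, and the log2 differences were -0.05 for *P4ha1*, 0.06 for *P4ha2*, -0.15 for *Plod1* and 0.12 for *Plod2*. A lone library is taken in such a fit to vary like the other groups.

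A list of 16 other hypoxia-response genes, mostly of glycolysis and pH control, moved over the same libraries. Its summed FPKM was 3982 and 3385 in NC, 1924 and 6745 in KD-Nap1l2, 1227 and 1440 in NC-7d, and 1762 and 2167 in KD-Nap1l2-7d. The list was thus highest in KD-Nap1l2 replicate 2 and lowest in the NC-7d libraries, as *P4ha1* was. *Lox* was also highest in KD-Nap1l2 replicate 2 (723.88 FPKM) but lowest in NC replicate 2 (182.35). Its log2 difference in NC-7d against NC was 0.65, the other way from the list. In NC-7d against NC edgeR called 1 of the 16, where it called 8.21% of all genes. This was the pyruvate dehydrogenase kinase *Pdk1* (log2 difference -3.04, edgeR adjusted p = 0.0481). The list's median was -1.43, with 14 genes lower and 2 higher. In KD-Nap1l2-7d against KD-Nap1l2 edgeR called 2, where it called 14.2% of all genes. They were the carbonic anhydrase *Car9* (-4.76) and *Ndrg1* (-2.57). The median was -1.09, again with 14 genes lower and 2 higher. What part the state that these genes mark had in the hydroxylase values was not tested. Among *P4ha1*, *P4ha2*, *Plod1* and *Plod2*, Pearson's r of log2 CPM ran from 0.86 to 0.93 over the 8 libraries for the 6 pairs, and from 0.61 to 0.92 over the 7 libraries without KD-Nap1l2 replicate 2. With those genes *Plod3* had r from 0.72 to 0.82, and from 0.20 to 0.52 without that library. *Lox* had r from 0.07 to 0.42 with them, and from -0.70 to -0.44 without that library. *Lox* and *Loxl4* had r = 0.77, and *Loxl1* and *Loxl4* had r = -0.72. Without that library these were 0.55 and -0.88. These values describe the libraries, which share their groups.

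**Figure D3:**
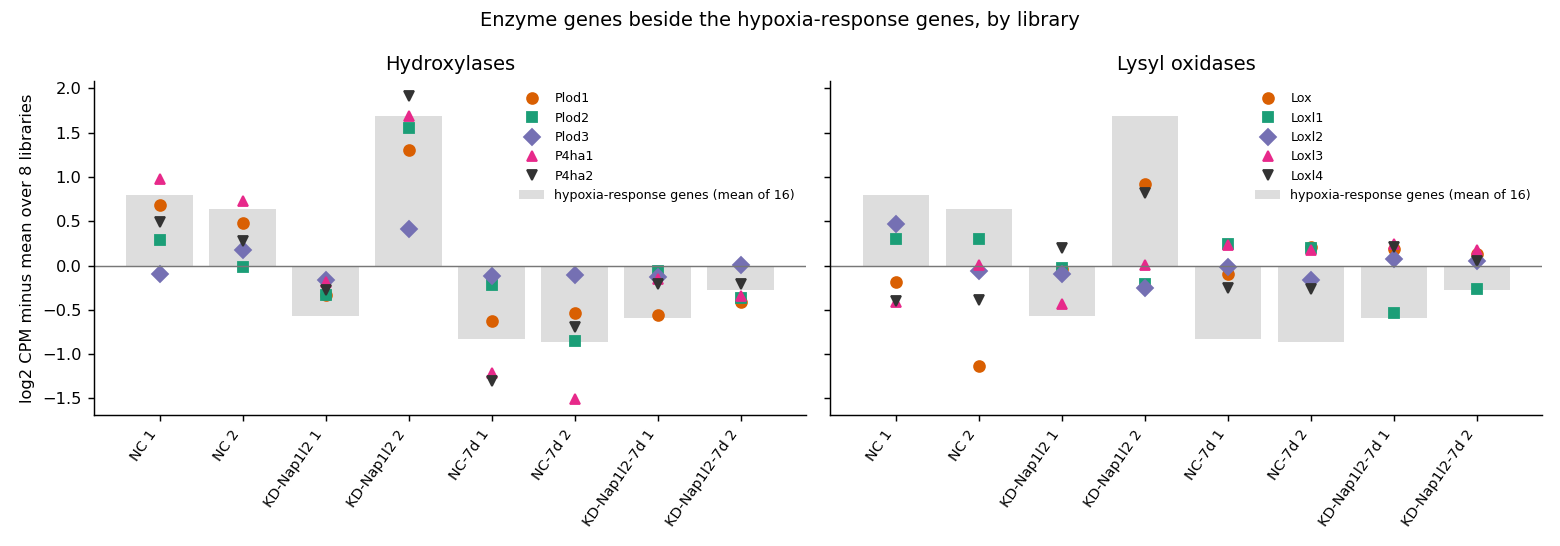
Log2 CPM of each gene minus its mean over the 8 libraries (vertical axis), for the 5 hydroxylases on the left and the 5 lysyl oxidases on the right. Grey bars give the same for the mean of 16 hypoxia-response genes. In KD-Nap1l2 replicate 2 the bar stands at 1.69 and *P4ha1*, *P4ha2*, *Plod1* and *Plod2* lie between 1.31 and 1.91, *Lox* and *Loxl4* at 0.93 and 0.82, and *Plod3*, *Loxl1*, *Loxl2* and *Loxl3* at 0.41 or less.

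The genes whose pattern over the 8 libraries was most like that of a member were looked up among 10554 genes with at least 100 normalized counts. For *P4ha2* they were *Iqcc* (r = 0.99), the glycolytic enzyme gene *Pgam1* (0.99) and *Ccdc58* (0.98). For *Plod2* they were *Seh1l* (0.98), *Vhl* (0.97) and *Exoc7* (0.97), and for *Lox* *Wipi1* (0.96), *Rtn4* (0.96) and *Prkar2b* (0.95). With so many genes and 8 libraries such values describe likeness of pattern alone. In KD-Nap1l2 replicate 2, *P4ha2*, *Plod2* and *Lox* lay 1.91, 1.55 and 0.93 above their means on the log2 scale. The look-up was not repeated without that library.

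Before induction, the libraries labelled KD-Nap1l2 lay apart from NC in *Lox*, *Loxl1* and *Loxl4* without passing edgeR's test. *Loxl4* had 1861 and 2852 normalized counts there, where NC had 1228 and 1238, a log2 difference of 0.93 ± 0.19 (edgeR adjusted p = 0.110). *Lox* had 33301 and 64754 normalized counts, where NC had 29862 and 15567, a log2 difference of 1.11 ± 0.37 (edgeR adjusted p = 0.253). Both genes were higher in each KD-Nap1l2 library than in each NC library, but the *Lox* difference was 0.55 when KD-Nap1l2 replicate 2 was left out and 1.65 when NC replicate 1 was. *Loxl1* lay the other way, with 5672 and 4988 normalized counts beside 7080 and 7106 in NC, a log2 difference of -0.41 ± 0.14 (edgeR adjusted p = 0.264). So edgeR called 0 of the 10 members, with 3 at an unadjusted p-value under 0.05 (13.7% of all genes), and called 0.0817% of all genes. DESeq2 called *Lox* (adjusted p = 0.0216) and *Loxl4* (0.00154) higher, among 3.44% of all genes.

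In the hydroxylases, the uninduced comparison depended on which KD-Nap1l2 library was taken. The KD-Nap1l2 libraries of *P4ha1*, *P4ha2*, *Plod1*, *Plod2* and *Plod3* stood on either side of NC. Their log2 differences were 0.18, 0.81, 0.12, 0.75 and 0.11, and without KD-Nap1l2 replicate 2 they were -1.05, -0.66, -0.92, -0.48 and -0.21. Without KD-Nap1l2 replicate 1, edgeR called *P4ha2* (1.52, adjusted p = 0.0293), *Plod2* (1.41, 0.0404) and *Loxl4* (1.21, 0.0127) higher, among 4.06% of all genes, and without replicate 2 *Loxl4* had 0.59 and an adjusted p of 0.261. *Loxl3* had a log2 difference of -0.01 and *Loxl2* of -0.41, with 66.5 and 59.3 normalized counts beside 99.4 and 68.2 in NC. Over the members 2 were wholly higher and 2 wholly lower, where 22.0% and 21.2% of all genes tested were, and the median log2 difference was 0.15 against 0.0106.

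After 7 days of induction, *Loxl1* again had lower values under the knockdown label, with 3975 and 4811 normalized counts in KD-Nap1l2-7d beside 6836 and 6606 in NC-7d. These libraries are separate from those compared before induction, but they share the same fit of all 8 libraries. Whether the cells came from a separate infection is not given, so this is not an independent repeat. The log2 difference in *Loxl1* was -0.61 ± 0.14 (edgeR adjusted p = 0.452), and DESeq2 called it (adjusted p = 0.0322). *P4ha1* had 2155 and 1754 normalized counts in NC-7d and 4509 and 3960 in KD-Nap1l2-7d, without overlap, a log2 difference of 1.12 ± 0.49 (edgeR adjusted p = 0.642). *P4ha2* had 848 and 1293 against 1809 and 1808 (0.76 ± 0.57), and *Loxl4* had 1355 and 1350 against 1873 and 1681 (0.39 ± 0.19). Both were wholly higher in KD-Nap1l2-7d, and neither passed. *Plod1*, *Plod2*, *Plod3*, *Lox*, *Loxl2* and *Loxl3* had log2 differences from 0.008 to 0.29. Of the 10 members edgeR called 0, with 1 at an unadjusted p-value under 0.05 (7.85% of all genes), and it called 0.0% of all genes, where DESeq2 called 1 member and 0.577% of all genes. Libraries of 4 members were wholly higher and those of 1 wholly lower, as were 21.0% and 21.0% of all genes tested, and the members' median log2 difference was 0.13 against -0.0056. The hypoxia-response list had a median of 0.55 in this comparison with 0 of 16 called.

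Whether induction acted differently in the libraries labelled KD-Nap1l2 was tested as the difference of the induction contrasts. edgeR called 0 of the 10 members and 0.0% of all genes, with 0 members and 948 genes (7.04%) at an unadjusted p-value under 0.05, and DESeq2 called 0 members and 0.759% of all genes. The largest differences were -1.01 ± 0.52 in *Lox* (edgeR adjusted p = 0.731), 0.94 ± 0.69 in *P4ha1* (edgeR adjusted p = 0.815) and 0.57 ± 0.38 in *Loxl2* (edgeR adjusted p = 0.800). *Loxl4* followed with -0.54 ± 0.27 (edgeR adjusted p = 0.722). Their sizes and order depended on single libraries. Without 1 library the *Lox* value ran from -1.56 (NC replicate 1) to -0.45 (KD-Nap1l2 replicate 2), that of *P4ha1* from 0.28 (KD-Nap1l2 replicate 1) to 2.16 (KD-Nap1l2 replicate 2), that of *Loxl2* from 0.27 (NC replicate 1) to 0.82 (NC replicate 2) and that of *Loxl4* from -0.82 (KD-Nap1l2 replicate 1) to -0.20 (KD-Nap1l2 replicate 2). With standard errors of this size, differences of 1 on the log2 scale in *Lox*, *P4ha1*, *P4ha2*, *Plod1* or *Plod2* were not detectable.

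Several substrates of these enzymes fell with induction, so enzyme levels were also set against them. Of 10 fibrillar collagen and elastin genes, edgeR called 3 lower and 1 higher in NC-7d against NC. In KD-Nap1l2-7d against KD-Nap1l2 it called 8 lower and 1 higher. The medians were -0.43 and -1.34, and of all genes tested edgeR called 8.21% and 14.2%. Elastin (*Eln*) fell by 4.85 on the log2 scale in the control cells (edgeR adjusted p = 0.00143) and fell by 5.45 on that scale in the libraries labelled KD-Nap1l2. *Col1a1*, the main chain of type I collagen, had a log2 difference of -0.52 (edgeR adjusted p = 0.269) in the control cells and fell by 1.25 (adjusted p = 0.0223) in the others. For each 100 FPKM of *Col1a1* there were 53.7 and 31.1 FPKM of *Lox* in NC and 58.7 and 69.7 in KD-Nap1l2, but 106.1 and 90.7 in NC-7d and 125.5 and 116.4 in KD-Nap1l2-7d. All 4 induced libraries thus held more *Lox* relative to *Col1a1* than all 4 uninduced ones. This split was not tested, and it was not kept with *Col1a2*, the other chain of type I collagen. Relative to *Col1a2*, *Lox* was higher in KD-Nap1l2 replicate 2 (723.88 FPKM beside 1136.3) than in NC-7d replicate 1 (363.75 beside 607.43). *P4ha1* per 100 FPKM of *Col1a1* was 27.6 and 26.7 in NC and 11.3 and 6.47 in NC-7d, and it was 12.1 and 26.9 in KD-Nap1l2 and 23.6 and 19.1 in KD-Nap1l2-7d. That ratio separated the control groups and not the others.

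**Figure D4:**
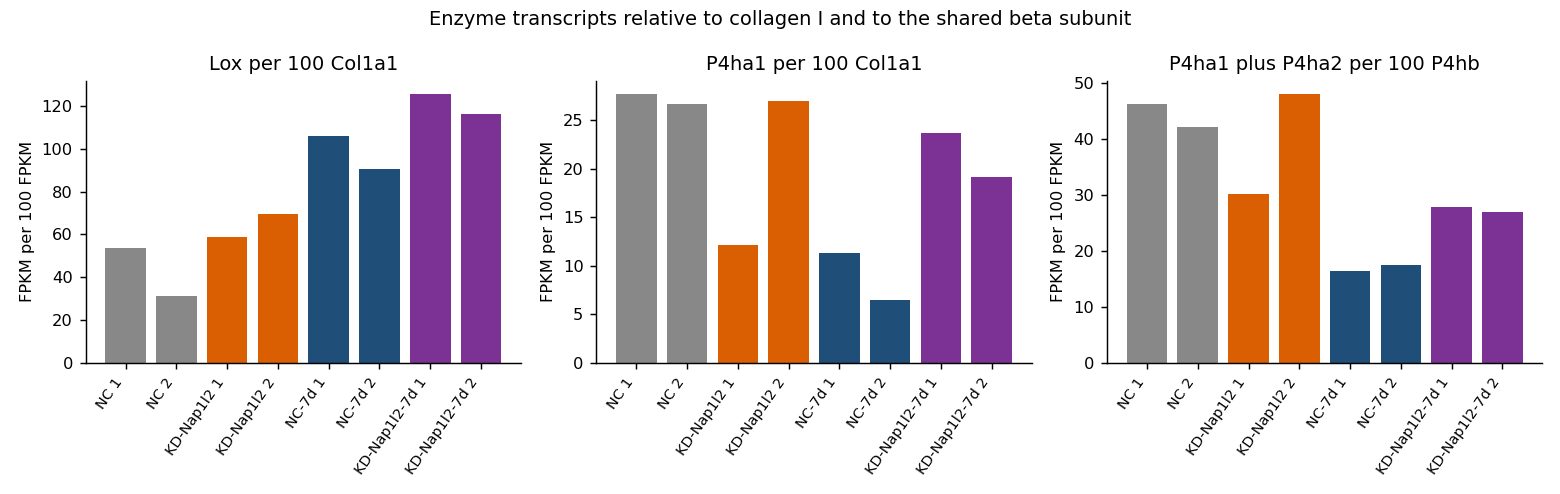
FPKM of enzyme genes per 100 FPKM of a partner (vertical axes, from 0) in each of the 8 libraries, coloured by group. *Lox* per 100 *Col1a1* is 90.7 or more in the 4 induced libraries and 69.7 or less in the others, and *P4ha1* plus *P4ha2* per 100 *P4hb* is 27.7 or less in the induced libraries and 30.1 or more in the others. The ratios were not tested.

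The prolyl 4-hydroxylase alpha subunits *P4ha1* and *P4ha2* had lower values relative to their beta subunit in each induced library than in any uninduced one. This ratio is given without a test and leaves out a further alpha subunit gene, *P4ha3*. By FPKM *P4ha3* held 6.77% and 7.66% of the alpha subunits in NC and 17.3% and 21.3% in NC-7d. It held 13.1% and 4.52% in KD-Nap1l2 and 9.24% and 10.6% in KD-Nap1l2-7d. *P4ha1* and *P4ha2* together had 46.2 and 42.0 FPKM for each 100 FPKM of *P4hb* in NC and 16.3 and 17.4 in NC-7d. The ratio was 30.1 and 47.9 in KD-Nap1l2 and 27.7 and 26.9 in KD-Nap1l2-7d. *P4hb* itself, which is also protein disulfide isomerase, had a log2 difference of -0.53 in NC-7d against NC (edgeR adjusted p = 0.399). Of 20 genes that fold and process procollagen, 18 were tested. edgeR called 6 lower and 0 higher in NC-7d against NC, and 10 lower and 0 higher in KD-Nap1l2-7d against KD-Nap1l2. The medians were -0.51 and -0.60, and of all genes tested edgeR called 8.21% and 14.2%. The genes called in this list included the collagen chaperone *Serpinh1* (-1.01 and -1.20), the prolyl 3-hydroxylase *P3h1* (-0.93 and -0.85) and its partner *Crtap* (-0.87 and -0.64). Neither list had a call by edgeR in KD-Nap1l2-7d against NC-7d, where 0.0% of all genes were called. Before induction edgeR called 0.0817% of all genes. The 1 call in these lists was *Col2a1*, the type II collagen chain (2.56, edgeR adjusted p = 0.0478).

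Of 11 genes that organise the matrix around lysyl oxidases, edgeR called 6 lower and 1 higher in NC-7d against NC. In KD-Nap1l2-7d against KD-Nap1l2 it called 7 lower and 1 higher. The medians were -0.99 and -1.26, and of all genes tested edgeR called 8.21% and 14.2%. The gene that rose in both was *Tgm2*, a transglutaminase that makes a different kind of cross-link, with log2 differences of 1.33 (edgeR adjusted p = 0.0085) and 1.94 (adjusted p = 0.00167). Those that fell in both included *Fbln5*, an elastic fibre protein, and the collagen-binding proteoglycans *Fmod*, *Dcn* and *Lum*. edgeR called none of the 11 in KD-Nap1l2 against NC or in KD-Nap1l2-7d against NC-7d, where it called 0.0817% and 0.0% of all genes. The 2 induction comparisons share no library, but they come from the same fit of all 8 libraries.

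*Lox* made up most of its family's transcripts by FPKM, with 70.3% and 54.1% in NC, 74.9% and 84.8% in KD-Nap1l2, 70.6% and 75.4% in NC-7d, and 80.0% and 77.8% in KD-Nap1l2-7d. *Loxl1* held 23.3% and 34.6% of the family in NC, 17.8% and 9.14% in KD-Nap1l2, 21.2% and 17.7% in NC-7d, and 11.4% and 14.0% in KD-Nap1l2-7d. Its share was lower in the knockdown libraries than in the controls of the same day. Among the lysyl hydroxylases, *Plod1* held 64.9% and 60.6% in NC and 46.4% and 50.6% in NC-7d, while *Plod3* went from 21.7% and 27.9% to 37.2% and 38.5%. Each share is of the sum over 3 or 5 genes, so a rise of 1 gene lowers the others.

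*Plod2* has splice forms that differ in 1 exon, and the longer form is the one known for hydroxylating telopeptide lysines. Exon 14 of 20 in NM_001142916, absent from NM_011961, lies at chr9:92601985-92602047 on the plus strand (GRCm38, GENCODE vM21 transcripts) and adds 63 coding bases. It is shown in capitals between the adjoining coding bases.
Plod2: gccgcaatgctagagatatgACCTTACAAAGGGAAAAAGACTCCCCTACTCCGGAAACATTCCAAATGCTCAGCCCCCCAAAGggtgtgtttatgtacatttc

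Nearly all *Plod2* counts were assigned to the form with this exon. The form without it had 30.24 estimated counts in NC replicate 1, of 1521 for the gene, 68.13 in KD-Nap1l2 replicate 2, of 3460, and 0 in the other 6 libraries. No shift to the shorter form was thus seen with induction in either background. The 10 genes had 27 transcripts in the deposited table, of which 24 could be tested, and edgeR called 0 of them in each of the 5 contrasts, where it called 0.018%, 0.144%, 0.0%, 0.0% and 0.0% of all transcripts. At an unadjusted p-value under 0.05 there were 5, 2, 3, 2 and 1 of the 24, beside 8.41%, 10.7%, 5.69%, 4.34% and 5.12% of all transcripts. All 5 in NC-7d against NC were models of *P4ha1*, whose estimated counts share reads, so they do not stand for several members. For *P4ha1*, 77.4% to 84.0% of the estimated counts of a library were assigned to predicted models with no coding sequence (XR_ entries), and no value of a single *P4ha1* transcript is given for that reason.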

How the data were processed

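Total RNA of 8 libraries (4 groups of 2) was sequenced with BGI protocols, per the labels. The authors deposited estimated counts per gene and per transcript, not normalized, and expression values whose unit the file headers do not name. These deposited values were read as FPKM from the numbers themselves: count divided by value and library total gave a length that was 1.0 times the annotated one at the median (quartiles 0.971 and 1.01) over 8568 transcripts with at least 100 counts in every library. The submitters' processing notes name BWA, Bowtie2, RSEM and GRCm38.p6 without their roles, and versions are not given in the sources used here. The authors' tables of comparisons (log2 fold changes, p-values and q-values by DESeq2) were not used.

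Estimated counts were rounded, scaled by TMM and filtered by filterByExpr, which kept 13470 genes. All 8 libraries were fitted as 4 group means with edgeR 4.0.16 in R 4.3.3 (glmQLFit, glmQLFTest), and Benjamini-Hochberg adjusted p-values under 0.05 over all genes tested were called. Standard errors were derived from each log2 fold change and its F statistic. Transcripts were tested likewise. Normalized counts are scaled to the geometric mean of the effective library sizes, and log2 CPM has a prior count of 2. Alternatives were DESeq2 1.42.0, limma 3.58.1 on log2(FPKM + 1) or log2(FPKM + 0.1), RLE size factors, no filter, a fit of the 4 libraries compared alone, a replicate block, and leaving out each library. The correlations without KD-Nap1l2 replicate 2 were added after seeing the data. edgeR was also tested on simulated data like NC-7d against NC, which held 13279 genes of which 200 were altered. It found all 100 genes with a 4-fold change, 74 of the 100 with a 2-fold change, and 4 others by error. Each simulated gene had only the spread usual for its count level, so these rates need not hold for genes that vary more. In the real comparison *P4ha2* (2.56-fold lower) and *Plod1* (2.23-fold lower) were not called by the main fit.

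All 10 members are named in each comparison, and genes of the other lists where called or needed as a partner. The members and lists were chosen with earlier results of these data known. Promoter sequences are from RefSeq (GRCm38.p6), with 5 of 10 members matched and *Lox* left out of the look-up, and the exon from GENCODE vM21. Depth limits counting error only. Pandas 2.3.3 and matplotlib 3.10.9 were used in Python 3.11.15.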

Additional observations from a re-analysis of the deposited data

How the results depend on the processing

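With 2 libraries per group, the spread rests on few values and most members had wide intervals. Of 580 alternative values of the 50 log2 fold changes (10 members in 5 contrasts), 519 kept their direction and their side of the threshold, 41 changed direction, 15 came to pass and 5 no longer passed. Under DESeq2 the number of members called moved to 2 in NC-7d against NC and 1 in KD-Nap1l2-7d against KD-Nap1l2. It called 11.0% and 17.4% of all genes there. DESeq2 called 2 members in KD-Nap1l2 against NC and 1 in KD-Nap1l2-7d against NC-7d, beside 3.44% and 0.577% of all genes. The fit of only 4 libraries called 3 in NC-7d against NC, beside 5.72% of all genes. Leaving out a library also moved the number in NC-7d against NC, in KD-Nap1l2-7d against KD-Nap1l2 and in KD-Nap1l2 against NC. Such a fit takes the lone library of a group to vary like the other groups. Over all genes, KD-Nap1l2 against NC had 11 calls, 453 with DESeq2, 160 with no filter, 33 and 18 with limma (pseudocounts of 1 and 0.1), 4 with the replicate block and 0 with only 4 libraries, and DESeq2 called 78 genes in KD-Nap1l2-7d against NC-7d and 100 in the difference of induction. The causes were not tested.

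Of the 50 log2 fold changes, 18 turned their sign under at least 1 alternative. In KD-Nap1l2 against NC, limma with pseudocounts of 0.1 and 1 gave -0.1172 and -0.115 for *P4ha1* and -0.0875 and -0.0848 for *Plod1*. For the difference of induction it gave 0.3398 and 0.3191 for *P4ha2* and 0.171 and 0.1667 for *Plod1*. These are the lowest and highest values on leaving out a library, for the genes whose sign turned. In KD-Nap1l2-7d against KD-Nap1l2 they were -0.77 to 0.20 (*Lox*), -2.12 to 0.064 (*P4ha2*), -1.76 to 0.12 (*Plod2*) and -0.47 to 0.10 (*Plod3*). In KD-Nap1l2-7d against NC-7d they were -0.049 to 0.26 (*Lox*), -0.022 to 0.034 (*Loxl3*) and -0.021 to 0.12 (*Plod3*). In KD-Nap1l2 against NC they were -0.25 to 0.21 (*Loxl3*), -1.05 to 0.83 (*P4ha1*), -0.66 to 1.52 (*P4ha2*), -0.92 to 0.72 (*Plod1*), -0.48 to 1.41 (*Plod2*) and -0.21 to 0.37 (*Plod3*). For the difference of induction they were -0.21 to 0.25 (*Loxl3*), -0.77 to 1.42 (*P4ha2*), -0.63 to 1.01 (*Plod1*), -1.12 to 0.77 (*Plod2*) and -0.31 to 0.26 (*Plod3*).

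Over all genes tested, the correlations of same-numbered deviations between groups ran from -0.061 to 0.104. They showed no general pairing by replicate number but cannot exclude a shared batch that affects only some genes. No source says that a number marks a shared batch. With the number as a block, the count of members called in NC-7d against NC was 0, with *P4ha1* at -2.22 and an adjusted p of 0.057 from edgeR, and the difference of induction was 0.2403 for *P4ha2* and 0.0831 for *Plod1*. The block changed no other call of a member.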
